A study of Mus musculus with 4 samples.

Results

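Clones for immune surface antigens and HLA genes were examined on 4 nylon membrane arrays hybridized with RNA from the axons and the cell bodies of mouse dorsal root ganglion (DRG) neurons. A spot was taken where its annotation gave exactly 1 gene symbol and that symbol began with HLA, was a CD antigen number, or named an interleukin receptor family gene, an Fc receptor, a leukocyte immunoglobulin-like receptor (LILR) or a Toll-like receptor. This gave 74 spots for 56 genes, of 8496 spots that named 1 gene (6284 genes) and 9600 spots in all. No spot named a Toll-like receptor.

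The neurons came from NIH Swiss embryos of embryonic day 13.5 and were kept in culture for 3 weeks according to the sample records. They were plated in the side compartments of Campenot chambers, and their axons extended beneath a barrier into the central compartment, so that RNA from each side could be taken separately. The 4 conditions were axons and cell bodies of cultures stimulated electrically for 2 h, and axons and cell bodies of unstimulated cultures. Each was 1 array hybridized with 1 pooled sample, of 3 coverslips by the sample records and of separate experiments by the methods, so no value has a replicate error and no p-value is given. Division of non-neuronal cells had been inhibited with drugs early in culture, and in all 4 conditions serum and nerve growth factor were withdrawn overnight before the experiment. In such samples fewer cells of a type and less RNA per cell cannot be told apart.

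HLA class I molecules present peptides from inside the cell to cytotoxic T cells and occur on nearly all nucleated cells. Class II molecules present peptides from endocytosed material to helper T cells and occur mainly on B cells, dendritic cells and macrophages. CD numbers are given to surface proteins recognised by antibodies. Some of these mark 1 leukocyte lineage, and others, such as the tetraspanins, are made by most cells, neurons included. The clones carry human symbols, whereas the RNA was from mouse. The mouse counterparts of HLA are the H2 genes, whose sequences do not pair with HLA genes one to one.

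Signal at these clones was close to that of all named clones. In the order stimulated axons, unstimulated axons, stimulated cell bodies and unstimulated cell bodies, the median intensity of the 74 clones was 113.9, 89.8, 137.6 and 179.1. The median of all named clones in the same order was 107.7, 94.3, 126.6 and 169.2. To compare arrays, the log10 intensity of each spot was turned into a z-score, its distance from the array mean in SDs over all spots. Of the 74 clones, 27 lay above the mean of the stimulated axon array (36.5%, against 38.1% of all named clones). On the unstimulated axon array 31 did (41.9%, against 40.6%). On the stimulated cell body array 34 did (45.9%, against 44.2%), and on the unstimulated cell body array 32 did (43.2%, against 43.3%). The share of bright clones in this gene set was therefore near the background share on every array.

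Mostly the same clones were bright on every array. The log10 intensities of the 74 clones correlated between arrays at r = 0.94 to 0.98, which describes clones that share membrane, length and sequence on each array. Of the clones, 24 were above the mean on all 4 arrays (32.4%, against 34.9% of named clones) and 36 were above it on none (48.6%, against 51.6%). A background level was taken from 384 spots with no named clone at places 25 and 50 of each row of 50 in the spot numbering. Its 95th percentile was 42.5 on the stimulated axon array, where 69 of 74 clones were above it (93.2%, against 88.4% of named clones). The 5 below it were the dimmer clones of CD151, CD320 and CD47 and the clones of HLA-DQA1 and HLA-DOA. On the unstimulated axon array the percentile was 21.9 and all 74 clones were above it (100%, against 94.6%). On both cell body arrays that percentile was 10, and CD14, in unstimulated cell bodies, was the only member at or below it. For these unnamed spots 10 was also the median and the 99th percentile in cell bodies, with and without stimulation. In axons their medians were 22.98 with stimulation and 11.79 without it. The cell body level is thus a repeated value, and a clone above it is not shown to exceed a measured background. The value of exactly 10 was shared by 359 spots of the stimulated and 361 of the unstimulated cell body array and is called a fill-in value here, although 373 and 235 spots had lower values and its origin is not stated.

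**Figure D1:**
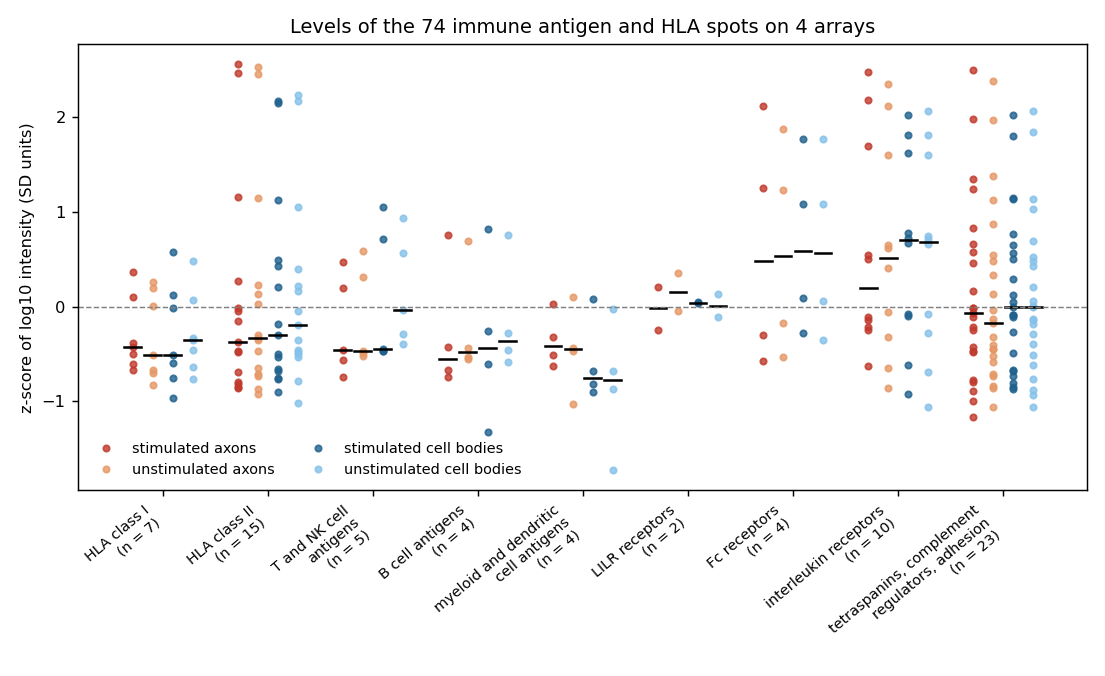
z-score of log10 intensity (vertical, in SDs over all spots of an array) of each of the 74 clones, grouped by the role of the gene, with 1 point per clone, a colour per array, bars at the median of each group and a dashed line at the array mean. The medians of both HLA groups lie below the mean on all 4 arrays, as does the median of all named clones. Single class II, interleukin receptor and widely expressed clones lie more than 2 SDs above the mean.

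HLA class I clones were mostly dim, as were named clones in general. Of the 7 clones 4 were above the mean on no array (against 51.6% of named clones) and 2 on all 4 (against 34.9%). The group held 7 clones of 4 genes (HLA-B, HLA-C, HLA-E and HLA-F), with median intensities of 81.6, 56.8, 60.4 and 113.1 in the order given above. HLA-C, a ligand of natural killer cell receptors, had the brightest clone of the group at 286.6, 203.8, 489.1 and 496.2. Its other 3 clones lay between 33.5 and 116.4 on every array. HLA-B, which presents peptides to cytotoxic T cells, was the dimmest at 55.9, 43.6, 25.1 and 68.6. HLA-E, which is read by NKG2 receptors of natural killer cells, gave 87.2 in stimulated axons, 184.7 in unstimulated axons, 155.6 in stimulated cell bodies and 113.1 in unstimulated cell bodies. HLA-E was highest in unstimulated axons, and its spot lay beside a clone of FKBPL, which read 6626 to 7521 on the 4 arrays. The part of that neighbour in the HLA-E values was not tested.

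HLA class II held the brightest members and many dim ones. The group had 15 clones of 11 genes, with mean z-scores over the 4 arrays from −0.90 to 2.36. Of the 15 clones 4 were above the mean on every array, against 34.9% of named clones. One clone of HLA-DRB1, a beta chain of the HLA-DR peptide receptor, gave 9421, 9143, 10349 and 9732. The other HLA-DRB1 clone gave 88.2, 138.6, 239.4 and 281.9. One clone of HLA-DPB1, the beta chain of HLA-DP, gave 8165, 8112, 10849 and 10948. The other 2 HLA-DPB1 clones stayed between 73.7 and 194.6. HLA-DRB4, a further DR beta chain, was bright at 1011, 897, 1424 and 1358. HLA-DRB5, another DR beta chain, was above the mean on every array at 249.4, 196.0, 416.5 and 428.8. The partner alpha chain HLA-DPA1 was near the mean at 156.0, 166.9, 368.4 and 307.6. HLA-DQA1, HLA-DQB1, HLA-DMA, HLA-DOA, HLA-DOB and both HLA-DRB3 clones had intensities of 28.3 to 112.5. HLA-DMA, HLA-DOA and HLA-DOB belong to the machinery that loads class II molecules with peptide.

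The T and NK cell antigens were CD7, CD27, CD69 and CD160, with 5 clones. Both clones of CD7, an antigen of T cells and their precursors, were above the mean on all 4 arrays. CD7 gave 341.7, 352.6, 1235 and 1093 at the brighter clone and 218.5, 224.4, 640.7 and 571.1 at the other. CD7 was thus brighter on both cell body arrays than on both axon arrays, as was the median of all named clones. CD69, an early activation antigen of lymphocytes, was the dimmest of the group at 48.9, 61.3, 68.3 and 105.3. Among 4 B cell antigens, CD38, an ectoenzyme of B cells and plasma cells that other tissues also make, was bright at 536.5, 426.6, 784.1 and 798.5. CD40, the costimulatory receptor of B cells and dendritic cells, was the dimmest at 49.5, 53.0, 12.4 and 93.9. CD48, an adhesion molecule of leukocytes, lay between 64.6 and 129.9, and CD52, a glycoprotein of lymphocytes, read 55.5, 54.5, 49.98 and 75.0.

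None of the 4 myeloid and dendritic cell antigens was above the mean on all arrays, against 34.9% of named clones. CD68, a lysosomal protein of macrophages, was brightest at 167.3, 156.6, 190.4 and 200.6, which is close to the array means. CD14, the co-receptor for bacterial lipopolysaccharide, gave 96.3, 61.0 and 43.0 and lay at the fill-in value of 10 in unstimulated cell bodies. CD36, a scavenger receptor, had the lowest mean z-score of the group, −0.83, at 71.3, 23.8, 28.1 and 45.6. CD84, an adhesion receptor of leukocytes, lay between 33.2 and 64.1.

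The LILR receptors were near the mean. LILRA2 gave 109.3, 124.0, 176.8 and 267.6. LILRB1, which binds HLA class I molecules, gave 223.5, 239.0, 173.2 and 172.9. Fc receptors bind the constant part of antibodies. FCER2, the low-affinity IgE receptor of B cells, was bright at 4677, 3035, 4993 and 4796. FCGRT, the neonatal Fc receptor that recycles IgG, gave 1185, 1032, 1317 and 1416. The 2 clones of FCER1A, the alpha chain of the mast cell IgE receptor, stayed between 55.1 and 232.5. FCGRT was the one gene of the FCGR pattern on the membrane, and it is made by many cells that are not leukocytes.

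Of the 10 interleukin receptor clones 5 were above the mean on all arrays, as were 2 of the 4 Fc receptor clones and 34.9% of named clones. With so few clones these counts are not a trait of either group. The brightest of the 10 was IL1RN at 8341, 6798, 8116 and 8097. IL1RN matched the naming rule but is a secreted antagonist of the interleukin 1 receptor, not a receptor. IL11RA, which binds interleukin 11, gave 5180, 4549, 5363 and 5162. IL17RC, a subunit of the interleukin 17 receptor, gave 2383, 1920, 3743 and 3541. IL17RA, the subunit that pairs with it, was the dimmest of the group at 59.5, 45.4, 27.1 and 32.4. IL17RB, the receptor for interleukin 25, gave 129.2 and 120.1 in axons and 595.8 and 677.9 in cell bodies. IL21R, a receptor of lymphocytes, lay between 355.7 and 784.5, and IL2RG, the gamma chain shared by several interleukin receptors, between 77.2 and 185.4.

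The last group held 23 clones of 15 genes that most cells make, among them tetraspanins, complement regulators and adhesion molecules. Of the 23 clones 8 were above the mean on every array, near the share of 34.9% of named clones. CD63, a tetraspanin of late endosomes and lysosomes, was bright at 3731, 3578, 5250 and 5510 at 1 clone and dim at 45.2, 49.7, 62.5 and 105.6 at the other. CD82, another tetraspanin, gave 1167, 1321, 1451 and 1301 at its brighter spot. CD320, the receptor for transcobalamin-bound vitamin B12, gave 1366, 877, 1473 and 1560 at its brighter clone. CD70, a ligand of the TNF family found on activated lymphocytes, was placed in this group by the list although it is not widely expressed. CD70 was the brightest of the group at 8545, 7180, 8068 and 8052. CD151, a tetraspanin, had the dimmest clone at 25.2, 22.8, 44.2 and 44.9. The tetraspanin CD81 lay between 331.6 and 571.1 and CD9 between 62.5 and 212.0. The complement regulators CD55 and CD59 lay between 39.1 and 125.6, and the adhesion molecules CD44, CD47, CD58 and CD164 between 29.7 and 177.4. CD99 had 4 clones between 78.3 and 713.9, and CD276 lay between 126.0 and 305.0.

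Different clones of 1 gene did not give the same level. Of the member genes, 13 had at least 2 spots, and the ratio of the brightest to the dimmest spot was taken on each array. In 12 genes the spots were different clones, whereas both CD82 spots carry the same clone accession. It was 64.5 to 121 for HLA-DPB1, 34.5 to 107 for HLA-DRB1, 52.2 to 84.0 for CD63 and 27.7 to 47.4 for CD320. It was 9.70 to 18.4 for CD151, 3.51 to 14.9 for IL13RA1, 4.66 to 13.0 for HLA-C and 2.48 to 5.19 for CD99. For CD82, HLA-DRB3, FCER1A, CD47 and CD7 it was between 1.29 and 2.99 on all arrays. Clones of 1 gene can carry different stretches of it, and related genes can share sequence, so the level of a gene cannot be read from a single clone here. The HLA family has near-identical members. How far these or the other member clones cross-hybridized was not tested.

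**Figure D2:**
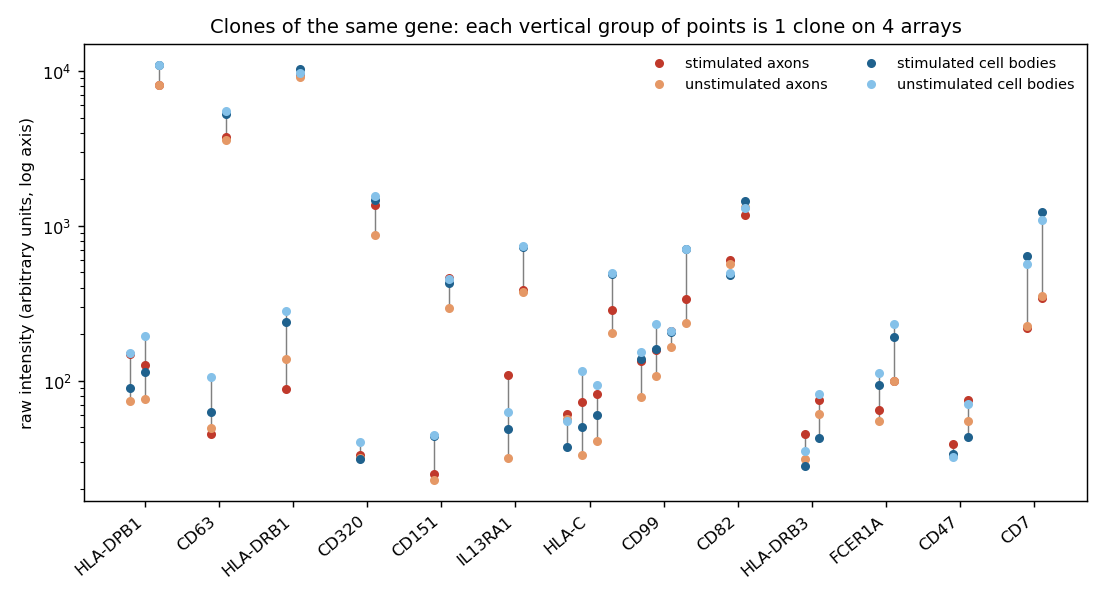
Raw intensity (log axis, arbitrary units) of every clone of the 13 member genes with at least 2 spots (for CD82 the same clone accession), where the 4 points of a vertical line are 1 clone on the 4 arrays, coloured by array. The clones of HLA-DPB1, CD63, HLA-DRB1 and CD320 lie further apart than any clone varies between arrays, whereas those of HLA-DRB3, FCER1A, CD47 and CD7 overlap or nearly so.

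Over all named spots, 3640 pairs of clones of the same gene correlated in mean log10 intensity at r = 0.10, and the 25 pairs among the members at r = −0.10. Pairs of the same sequence accession correlated at r = 0.28 (141 pairs). Spots 25 and 50 apart in the numbering, which hold different genes, correlated at r = 0.34 (7819 pairs) and r = 0.35 (7812 pairs), and spots 1 apart at r = −0.04 (7510 pairs). These correlations are across spots of the same membranes, which are not independent. Brightness thus followed the place in the numbering more closely than the gene. Genes used as a reference varied as widely, since the 13 clones of the tubulin gene TUBA1B ran from 43.8 to 12271 in stimulated axons and the 7 clones of the actin gene ACTB from 20.8 to 5510.

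The bright members were checked against their places. The mean z-score of the 24 places in a block of 25 spots ran from −0.59 to 0.65. The bright clones of HLA-DRB1 and HLA-DPB1 lay 50 spots apart, at the same place of neighbouring rows. Of the 40 spots that lay 25 or 50 away from the 10 brightest members, 29 were above the mean, against 11 of the 20 spots directly beside them. Of named spots in general 41.1% were above it, as were 41.9% of members. Of 31 members with a mean z-score above 0, 27 stayed above 0 once each place and row had been centred. After centring, HLA-DRB1 was at 2.35, HLA-DPB1 at 1.93, CD70 at 1.73 and IL17RC at 1.03. The part of position in these levels was not tested further.

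A mouse gene of the same symbol existed in RefSeq for 35 of the 56 genes (46 clones) and not for 21 (28 clones), of which 15 were HLA genes. Absence of the symbol says nothing of an ortholog under another name. Clones of genes with such a mouse symbol were above the mean on all 4 arrays in 34.8% of cases and the others in 28.6%. Over all named clones these shares were 35.1% and 33.4%. The clones of FCER2 and IL11RA, both bright, were among those without a mouse gene of that symbol. The 22 HLA clones had a median mean z-score of −0.38, against −0.08 for the 46 clones whose genes share a mouse symbol.

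Differences between 2 arrays were measured as z ratios (the z-score on the first array minus that on the second, scaled to an SD of 1 across the 9600 spots) and counted at 1.4 or more in size, a threshold the methods name. As a measure of spread, single clones scattered about their gene with an SD of 0.72 to 0.89 z ratio units over 3640 pairs of clones of 1 gene, and the z ratios of such pairs correlated at r = 0.07 to 0.13. Among the members that SD was 0.41 to 0.68 over 25 pairs.

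Stimulation of axons moved few of these clones past the threshold. IL13RA1 (1 of 2 clones) and CD36 were higher, and HLA-E, HLA-DOA, IL10RB and the dim HLA-DRB1 clone were lower. This is 2 of 74 higher (2.70%, against 3.34% of named clones) and 4 lower (5.41%, against 5.6%). The median z ratio was 0.07 over the members and 0.03 over all named clones. These shares were near the background.

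IL13RA1, a chain of the interleukin 13 receptor, gave 109.2 in stimulated axons and 31.6 in unstimulated axons at its dim clone, a z ratio of 2.35. Its brighter clone gave 383.6 and 374.7, a z ratio of −0.28, so the difference was seen at 1 of 2 clones and the mean over both did not reach the threshold. CD36 gave 71.3 and 23.8, a z ratio of 1.97. Its lower value lay near the background level of 21.9 on that array and under the 99th percentile of 28.3. Both spots past the threshold upwards were below the array mean on both arrays. HLA-E gave 87.2 and 184.7, a z ratio of −2.22. HLA-DOA, a regulator of peptide loading, gave 41.4 and 79.9, a z ratio of −2.09, with the lower value under the background level of 42.5 on that array, so the size of the difference is not measured. IL10RB, the beta chain of the interleukin 10 receptor, gave 134.7 and 265.0, a z ratio of −1.999, and lay beside a bright clone of DCTN2 (867 to 1315). The dim HLA-DRB1 clone gave 88.2 and 138.6, a z ratio of −1.54, whereas the bright one gave 9421 and 9143, a z ratio of 0.10. The call for the dim HLA-DRB1 clone was lost under 5 of 8 processing alternatives, and the other calls named here held under at least 7 of 8. Those alternatives keep the threshold of 1.4 (1 for a log2 ratio). For genes with 1 clone, 1 value per gene and the alternatives restricted to some spots only rescale the difference.

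Stimulation of cell bodies gave fewer such clones. CD14 was higher, and CD40 and CD160 were lower. This is 1 of 74 higher (1.35%, against 1.49% of named clones) and 2 lower (2.70%, against 3.39%), and the median was 0.05, against 0.06. CD14 gave 43.0 in stimulated cell bodies and the fill-in value in unstimulated ones, so its difference has no measured size. CD40 gave 12.4 and 93.9, a z ratio of −3.36, with the lower value close to the fill-in value of 10. CD160, a receptor of NK and cytotoxic T cells, gave 65.8 and 197.7, a z ratio of −1.65, and was lost under 2 of 8 alternatives. All 3 clones were below the mean over the 2 arrays. None of the 33 members above it passed the threshold, against 6 of 3703 named clones above it, so this is near the background.

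**Figure D3:**
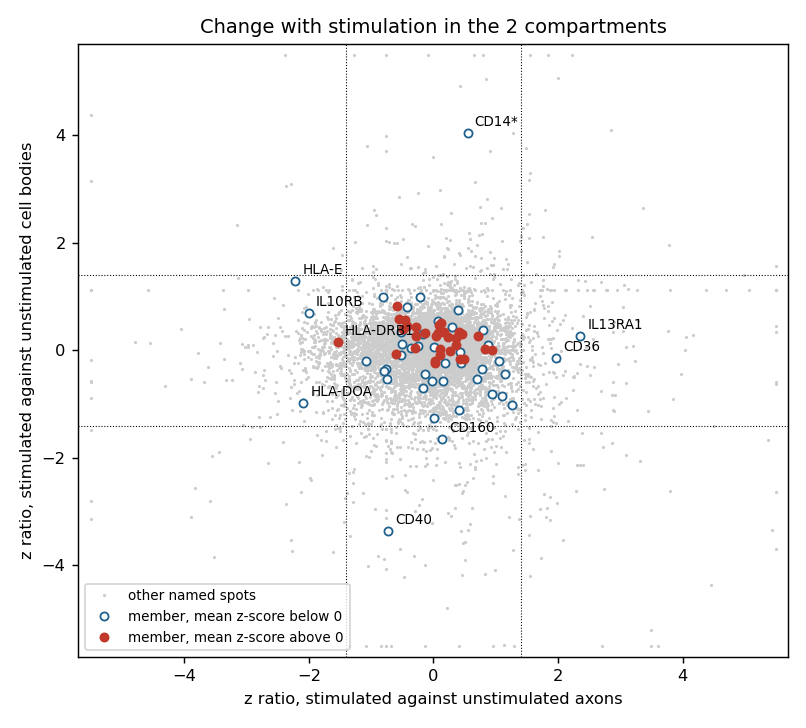
z ratio of stimulation in axons (horizontal) against that in cell bodies (vertical) for members above (filled) and below (open) the array mean over other named spots in grey, with dotted lines at 1.4, spots beyond 5.5 drawn at the edge and an asterisk at CD14 for its fill-in value. The members show no common direction (r = −0.07 over 74 clones, against 0.02 over named clones).

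The stimulation differences in the 2 compartments come from separate pairs of arrays. Over the 74 clones they had the same sign in 33 (44.6%, against 51.6% of named clones) and correlated at r = −0.07 (named clones 0.02). No member passed the threshold in both compartments. The share of all named clones that did so was not counted. As few named clones passed it in either compartment, this says little about these genes. HLA-E had z ratios of −2.22 in axons and 1.29 in cell bodies, and IL10RB had −1.999 and 0.70. Those differences between compartments were not tested, as there is 1 array per condition.

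Axons and cell bodies without stimulation differed at 4 clones. CD14, IL10RB and HLA-E were higher in axons, and IL17RB was lower. This is 3 of 74 higher (4.05%, against 3.6% of named clones) and 1 lower (1.35%, against 3.41%). IL10RB gave 265.0 in axons and 128.0 in cell bodies, a z ratio of 1.86. HLA-E gave 184.7 and 113.1, a z ratio of 1.47. The CD14 value in cell bodies was the fill-in value and gives no size. For IL10RB and HLA-E the unstimulated axon array is also the one from which the stimulated axon array differed, so both comparisons rest on that array. With stimulation their z ratios between axons and cell bodies were −0.02 and −0.96.

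With stimulation 1 clone was higher in axons (1.35%, against 2.92% of named clones) and 3 were lower (4.05%, against 5.74%). The one higher clone was CD40, which read 49.5 in axons against 12.4 in cell bodies. Its z ratio of 1.53 was lost under 5 of 8 alternatives. IL17RB, CD7 and the dim HLA-DRB1 clone were lower. The HLA-DRB1 clone had 88.2 and 239.4, a z ratio of −1.53, lost under 4 of 8 alternatives, and without stimulation its z ratio was −0.37. The bright HLA-DRB1 clone had z ratios of 1.07 with and 0.97 without stimulation, which a loess correction for brightness lowered to 0.04 and 0.24. Its intensity was lower in axons on both pairs. The median over the members was −0.17 without and −0.05 with stimulation, against −0.07 and −0.05 over named clones.

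IL17RB was lower in axons on both pairs of arrays. The clone gave 120.1 in unstimulated axons and 677.9 in unstimulated cell bodies, a z ratio of −1.94. With stimulation it gave 129.2 and 595.8, a z ratio of −2.13. Axon and cell body values did not overlap, and both calls held under all 9 alternatives that could be run. The named spot beside it, a clone of SMOC1, read 42.9 to 56.3, and the other neighbour 4.76 to 13.3. IL17RB is the only member that passed the threshold in the same direction with and without stimulation, and it is represented by 1 clone. How many of the named clones did so was not counted. The 2 comparisons correlated at r = 0.52 over named clones, so 1 such member says little about this gene set.

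CD7 was lower in axons at both of its clones. The brighter clone had z ratios of −1.51 with stimulation and −0.93 without it. The other clone had −1.36 and −0.67. In intensity both clones were brighter on each cell body array than on each axon array, as was the median of all named clones. Only the brighter clone with stimulation passed the threshold, and that call was lost under 2 of 9 alternatives. It lay beside a clone of LAS1L that read 1951 to 2805.

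**Figure D4:**
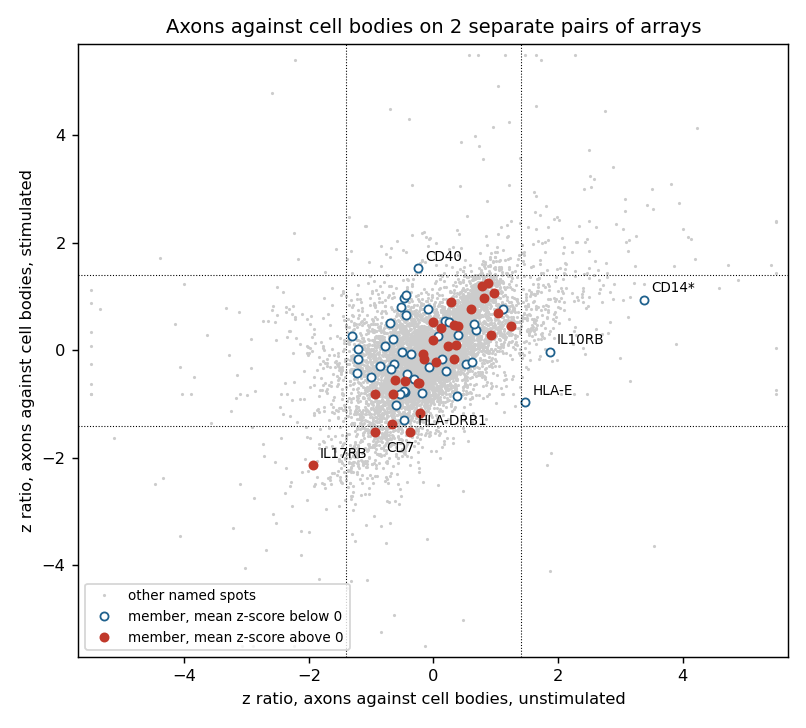
z ratio of axons against cell bodies without (horizontal) and with stimulation (vertical) for members above (filled) and below (open) the array mean over other named spots in grey, with dotted lines at 1.4, spots beyond 5.5 drawn at the edge and an asterisk at CD14 for its fill-in value. IL17RB lies past the threshold on both axes, and members above the mean lie along the diagonal (r = 0.87 over 31 clones).

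The 2 comparisons of axons with cell bodies share no array. Their z ratios had the same sign for 53 of 74 clones (71.6%, against 72.9% of named clones) and correlated at r = 0.46 (named clones 0.52). For the 31 members above the mean the sign was the same for 28 (90.3%, against 82.9% of named clones above it), with r = 0.87 (0.79). For the 43 below it the sign was the same for 25 (58.1%, against 65.9%), with r = 0.19 (0.42). After a loess correction for brightness, 27 of the 31 brighter members (87.1%) still had the same sign, with r = 0.83 (named clones 0.72). After it, the bright clones of HLA-DRB1, IL1RN, CD70 and IL11RA had z ratios between 0.04 and 0.34, whereas uncorrected they had 0.77 to 1.25, and IL17RB had −1.99 and −2.17. The bright clones of HLA-DPB1, CD63 and IL17RC turned from above 0 to below it on both pairs, to −0.18 and −0.29 for HLA-DPB1, and FCER2 did so without stimulation. The other named members below 0 on both pairs before and after loess included a CD99 clone at −0.94 and −0.80 and CD276, a relative of the B7 costimulators, at −0.65 and −0.80. The LILR receptor LILRB1 was above 0 on both, at 1.24 and 0.45. None of these last 3 passed the threshold before the correction, and after it LILRB1 did without stimulation, at 1.62.

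Genes of the pathways in which these antigens act were read from 4 lists, as means over the clones of a gene. The lists covered antigen processing and presentation (15 of 27 genes measured), Toll-like receptor signalling (10 of 28), interleukin receptor partners (10 of 26) and immunoreceptor signalling (13 of 29). Of the 48 measured genes, 1 was higher and 1 lower with stimulation in axons (4.17%, against 7.83% of all genes either way), namely CTSB and CSF2RA. In cell bodies 1 was higher, PDIA3, and none lower (2.08%, against 4.34%). Between axons and cell bodies 1 was higher in axons without stimulation, MAP3K7 (2.08%, against 6.22%). With stimulation CTSB and MAP3K7 were higher and IKBKG was lower (6.25%, against 7.43%). CTSB, PDIA3 and MAP3K7 were at the fill-in value on at least 1 array. The brightest was PSMB10, a subunit of the immunoproteasome, at 11056, 7275, 12150 and 11606. The lowest mean z-score was that of CTSB, a lysosomal protease, at 45.3, 6.65, 10 and 10. TAP1, a chain of the peptide transporter of the endoplasmic reticulum, read 55.7, 47.0, 50.6 and 93.3.

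Markers of cell types were read in the same way. Of the myeloid list 9 of 21 genes were measured, 5 had a mean z-score above 0, and their summed intensity was 19000, 15886, 18660 and 20113. C1QB alone made up most of that sum, and PTPRC, CSF1R and ITGAM were not among the named clones. Of the T or NK cell list 4 of 18 were measured and 1, NKG7, was above 0. Of the B cell list 4 of 12 were measured and all 4 were above 0, with IGHM at 0.05 and BLK at 0.04. The labelled neurons were checked against 8 of 16 neuronal markers. THY1, UCHL1 and NEFM were above 0, and TUBB3 (−0.30), SNAP25 (−0.55), STMN2 (−0.66), INA (−0.96) and GAP43 (−0.14) were not, although DRG neurons are known to make them. Of Schwann cell or satellite glia markers 6 of 10 were measured and 1, SOX10, was above 0. Of fibroblast markers 5 of 9 were measured, with FN1 and THY1 above 0, and of endothelial markers 1 of 7, ENG, which was not. Of the 36 marker genes measured, ENG, INA and PDGFRA were higher and GFAP lower with stimulation in axons (11.1%, against 7.83% of all genes). ENG and PDGFRA read 6.56 and 5.65 in unstimulated axons, INA 19.3 there, and GFAP 20.8 in stimulated axons, each under the background level of its array. In cell bodies CD14 and ENG were higher (5.56%, against 4.34%). CD14 was also higher in axons without stimulation (2.78%, against 6.22%), and with stimulation C1QB and PDGFRA were higher and DCN and GFAP lower (11.1%, against 7.43%). Neuronal markers, like leukocyte markers, were thus bright at some clones and dim at others. Whether leukocytes were present in the cultures was not tested by these values.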

How the data were processed

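The authors hybridized amplified, 33P-labelled RNA to nylon arrays of cDNA clones, read them with a phosphor imager and deposited 1 raw intensity per spot and array. Handling of background and the meaning of the value 10 are not given in the sources used here. They were read as fill-in values because many spots share exactly that number. A further deposited table held the same values and was not used. Genes were taken from the platform annotation, and spots naming several genes (21) or none (1083) set the array mean but were not members. The number of arrays limits the precision.

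z-scores of log10 intensity and z ratios were computed over all 9600 spots with Python 3.11.15, numpy 2.4.6, pandas 2.3.3 and matplotlib 3.10.9. R 4.3.3 with limma 3.58.1 gave the loess, quantile and normexp alternatives. The scripts were tested on simulated data. With 1 array per condition no test was made. The members, roles and lists were chosen with earlier results of these data known. Named clones are those past the threshold (at most the 8 largest above the mean per comparison), the 10 brightest, genes with 3 or more clones, the brightest and dimmest of each role, lineage markers where measured, and the 2 highest and 2 lowest per comparison. Other members were named after their values were seen so that each is accounted for. The alternatives were a log2 ratio (threshold 1), a robust z-score, loess (span 0.3), quantile normalization, normexp (offset 50), spots above the array mean only, 1 value per gene, a threshold of 2, the array median as the level for bright clones, named spots only for the array mean, and the 99th percentile of unnamed spots. Centring by place and row, and only spots above 10 on both arrays, were chosen after seeing the data. Mouse symbols came from RefSeq genes of GRCm38.p6. Hippocampal arrays, Illumina arrays and PC12 cells were not analysed here.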

Additional observations from a re-analysis of the deposited data

How the results depend on the processing

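No paired analysis was possible because each condition is 1 array and no condition has a replicate to leave out. Counts below are of the 74 clones, higher then lower, except that 1 value per gene runs over 56 genes, spots above the mean only over 29 to 33 clones and spots above 10 on both arrays over 73 or 74, and the cause of a change was not tested except where fewer spots were used. For stimulated against unstimulated axons (2 and 4), normexp gave 7 higher, spots above the mean only 1 and 1, 1 value per gene 1 higher, spots above 10 on both arrays 4 higher, and a threshold of 2 gave 1 and 2. For cell bodies (1 and 2), normexp gave 5 and 4, spots above the mean only 6 and 0, 1 value per gene 2 and 4, spots above 10 on both arrays 4 and 8, and the robust z-score, centring by position and a threshold of 2 each gave 1 lower. For axons against cell bodies without stimulation (3 and 1), the log2 ratio gave 6 higher, the robust z-score 5 higher, normexp 7 and 5, spots above the mean only 5 and 3, 1 value per gene 5 and 4, spots above 10 on both arrays 5 and 5, centring by position 3 lower, and a threshold of 2 gave 1 and 0. With stimulation (1 and 3), the log2 ratio gave 10 and 5, the robust z-score 7 and 1, loess and quantile normalization 0 higher, normexp 3 and 6, spots above the mean only 2 higher, 1 value per gene 3 higher, centring by position 2 higher, spots above 10 on both arrays 4 and 6, and a threshold of 2 gave 0 and 1. Set against all named clones (or genes) under the same alternative, the share of members was higher in 36 of these 80 comparisons of shares, and 71 of the 80 member counts lay within 2 of the count at the named share. The counts at the named share were themselves small and all 80 come from the same 4 arrays, so a margin of 2 is wide and says little. The widest gaps were 15.2% against 7.42% (higher in axons without stimulation, spots above the mean only) and 3.45% against 9.14% (lower in stimulated axons, spots above the mean only).

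The median z ratio of the members kept its direction in axons under every alternative run. In cell bodies (0.05) it turned to −0.0596 with the robust z-score and −0.0067 with normexp and was 0.73 over spots above the mean. Between axons and cell bodies without stimulation (−0.17) it turned to 0.0020 with the robust z-score, 0.0764 over spots above the mean and 0.0191 after centring by position. With stimulation (−0.05) it turned to 0.31 with the robust z-score, 0.17 with quantile normalization, 0.17 with normexp, 0.11 over spots above the mean and 0.0552 after centring by position. With the array median as the level, 41 clones were bright in stimulated axons, against 27. That level splits all spots of an array evenly, so a rise follows from the cut itself. The share of named clones above it was not counted. None of the clones past the threshold changed direction under an alternative. Signal over background limits the dim clones, since 5 of 74 were below the 95th percentile of unnamed spots in stimulated axons. Against the 99th percentile, 60 of 74 were above it in stimulated axons and 71 of 74 in unstimulated axons. No share of named clones was taken at that percentile.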

Other observations

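Some leukocyte genes outside the member set were among the bright spots, and others were dim. Over the whole lists, 5 of 9 myeloid, 4 of 4 B cell and 1 of 4 T or NK cell genes had a mean z-score above 0. Of named spots in general 41.1% did. LCK (−0.16) and GZMA (−0.51) of the T or NK cell list were below 0. C1QB, a chain of complement C1q made by macrophages and microglia, read 16465 in stimulated axons, 13392 in unstimulated axons, 14549 in stimulated cell bodies and 16040 in unstimulated cell bodies, with a mean z-score of 2.62. C1QC, another chain of the same complex, was lower at 461.6, 479.7, 1185 and 1029. LYZ, the lysozyme of macrophages and granulocytes, read 1142, 1162, 1513 and 1501, and TYROBP, an adaptor of myeloid and NK cell receptors, read 438.0, 374.3, 965.4 and 971.0. AIF1, a marker of microglia and macrophages, was dim at 65.8, 52.3, 63.2 and 102.0, and CTSS, a protease of antigen presenting cells, read 102.1, 131.7, 59.1 and 149.8. ITGB2 of the myeloid list was also dim at 62.0, 75.6, 90.9 and 108.9. Each of these genes has 1 named clone.

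Among B cell genes, BLNK, an adaptor of the B cell receptor, read 2852, 2171, 2744 and 2639, and MS4A1, which encodes CD20, read 745.2, 583.1, 938.3 and 1041. IGHM, the immunoglobulin mu chain, had 8 clones, which ran from 58.7 to 4534 in stimulated axons and from 103.0 to 5036 in unstimulated cell bodies. SIGIRR, an inhibitory member of the interleukin 1 receptor family, read 5487, 5111, 6522 and 6448. These values are given without an account of their source, which was not tested.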
